A study of Mus musculus with 3 samples.

Results

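The genes Ccr1, Mif, Crybb1, Fabp5, Lgals1, Lyz2 and Tmsb10, known as higher in fetal or early postnatal microglia than in adult microglia, were followed here. They were taken as a list by name, and all 7 are among the 14221 genes listed in the count tables of 3 mouse brain libraries. Both control libraries, WT 1 and WT 2, came from adult wild-type mice. The other library came from 1 mouse without MHC class II and with almost no CD4 T cells; its age, and the sex of all 3 animals, are not given in the labels, nor is the gene whose loss removed class II. All 3 libraries hold single cells sorted from digested brain by the surface proteins CD11b and CD45 and sequenced from the 3' ends of transcripts in droplets. The study is known for asking whether microglia mature fully when CD4 T cells are missing, and these genes bear on that question as genes that mature microglia express less.

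Microglia are the resident macrophages of the brain. They descend from yolk sac progenitors that enter the embryonic brain, and they pass from a proliferating fetal state through an early postnatal state to the adult state, in which genes such as Tmem119 and P2ry12 are high. The same early genes are not restricted to microglia: several are also high in monocytes, neutrophils or the macrophages at the brain's borders, so the purity of a microglia sort bears on their measured level.

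The tables held 4589 and 4815 barcodes in the control libraries (WT 1 first, here and in every pair or trio of values below) and 2278 in the deficient one, from 16230216, 17293844 and 6616662 UMIs (unique molecular identifiers, each a counted transcript molecule), and pairs of libraries shared 12 to 28 barcodes. The class II genes H2-Aa, H2-Ab1 and H2-Eb1 had 2610 to 4448 UMIs each in the WT libraries and are not listed in the deficient table, which matches its label. After filtering, 3672, 4174 and 1844 cells were called microglia-like from 11 markers fixed by name, all of which had UMIs in every library. Neutrophil-like cells were 6.45% and 2.87% of the WT cells and 0.852% of the deficient cells. The deficient microglia stood apart from both WT libraries: 1643 of 1844 cells, against 53 and 112 WT cells, fell in a sub-cluster led by Ccr6 and Tagap1. A cluster of 272 deficient, 2 WT 1 and 14 WT 2 cells and another of 225, 209 and 59 cells stayed unnamed, because Slc1a3, an astrocyte marker on the list used, was among their 10 leading genes with no microglia marker, and the calls of the 7 genes and of the gene lists are given with and without them.

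In microglia-like cells 2 of the 7 genes were higher in the deficient library than in WT, Ccr1 and Tmsb10, and none was lower. The levels are UMIs scaled to a library total of 1000000 UMIs in the class (CPM), with the UMIs of all microglia-like cells of a library summed. The test was edgeR's quasi-likelihood test over all 11836 genes tested, with a Benjamini-Hochberg adjusted p under 0.05 as the threshold. Each animal gave 1 library, so the spread comes from the WT pair, with 1 residual degree of freedom. The spread of each gene is drawn towards that of all genes. A standard error here thus does not measure how far the 2 WT values of that gene differ. The lone deficient library is assumed to vary like WT. Of all genes tested, 3.3% (390) were called higher and 8.38% (992) lower, so 2 of 7 called higher is to be read against that share. At an unadjusted p under 0.05, 2 members were higher and 0 were lower, against 994 and 1556 of the 11836 genes. DESeq2, run on the same sums, called 0 of the 7, and called 0.422% of all genes higher and 3.67% lower. At an unadjusted p under 0.05 it had 1 member higher and 0 lower, against 214 and 769 of all genes. With the clusters left unnamed for Slc1a3 added, edgeR called 1 of the 7 higher, Ccr1, against 1.57% of all genes, and 0 lower against 6.37%. At an unadjusted p under 0.05, 3 were higher and 0 lower there, against 882 and 1445 of 11858 genes. Over all retained cells of the sort, edgeR called 0 of the 7 higher against 1.02% of all genes, and 2 lower, Lgals1 and Lyz2, against 6.1%. In these cells 1 was higher and 3 lower at an unadjusted p under 0.05, against 821 and 1598 of 11971 genes. With 2 libraries against 1, an exact permutation test of a single gene could not give a p below 1 in 3.

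**Figure D1:**
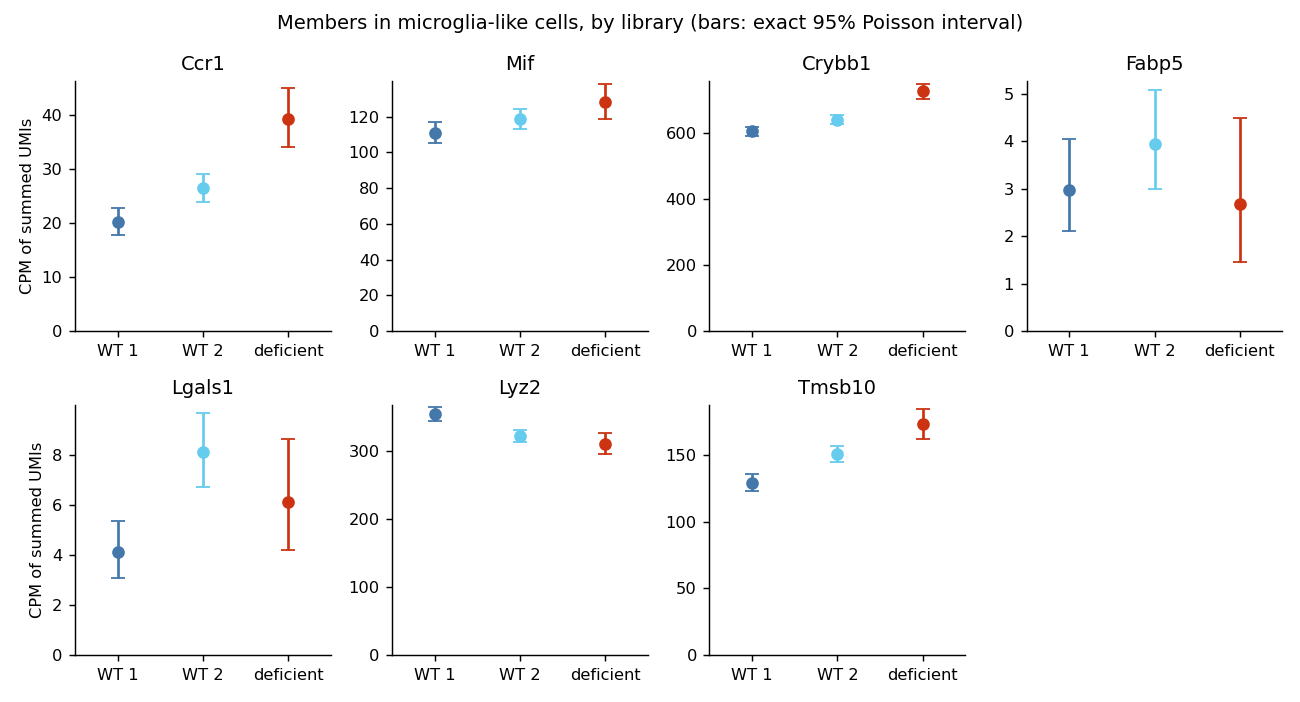
Level of each gene in microglia-like cells (vertical axes, CPM of summed UMIs, each starting at 0) in WT 1, WT 2 and the deficient library; points are single libraries and bars are exact 95% Poisson intervals, which cover counting error only. Ccr1, Crybb1 and Tmsb10 have deficient intervals above those of both WT libraries, while Mif, Fabp5, Lgals1 and Lyz2 overlap with at least 1 WT library. The share of all genes with intervals apart in this way was not counted, so nothing particular to these genes can be read from it.

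Ccr1 (chr9:123962124-123968692, minus strand, mm10), a receptor for inflammatory chemokines such as Ccl3 and Ccl5, had 20.2 and 26.4 CPM in the WT mice and 39.2 CPM in the deficient mouse, from 265, 395 and 205 UMIs. The deficient value lay above both WT values, with a Poisson interval of 34.0 to 44.9 CPM against 23.9 to 29.1 CPM in WT 2. The log2 fold change, deficient minus WT, was 0.73 with a standard error of 0.14 (1.66-fold; edgeR adjusted p = 1.53e-05). DESeq2 gave nearly the same fold change, 0.73, with an adjusted p of 0.171. When the clusters left unnamed for Slc1a3 were added, the log2 fold change was 0.71 (edgeR adjusted p = 0.0104), and in all retained cells of the sort it was 0.18 (edgeR adjusted p = 0.442). Ccr1 UMIs sat in few cells: the 1% of microglia with the most Ccr1 UMIs held 49.4%, 38.7% and 39.0% of them. With each cell thinned to 1000 UMIs, 1.63%, 1.96% and 3.22% of microglia had a Ccr1 UMI (3.81%, 5.25% and 5.59% before thinning, at median depths of 3395, 3334 and 2756.5 UMIs). In the non-classical monocyte-like cells the thinned share was 0% in all 3 libraries, from 10, 12 and 14 cells, which is too few cells to serve as a background.

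Tmsb10 (chr6:72957347-72958748, minus strand) encodes a thymosin that binds actin monomers. It had 129 and 151 CPM in the WT mice and 173 CPM in the deficient mouse. The deficient value was the highest of the 3, but the step from WT 2 to it was about as large as the step between the WT libraries. The log2 fold change was 0.29 with a standard error of 0.10 (1.22-fold; edgeR adjusted p = 0.0395). This call did not hold under several other choices: the edgeR adjusted p was 0.114 with the Slc1a3 clusters added, 0.149 under a stricter cell filter and 0.15 at a coarser clustering, and DESeq2's was 0.703. Without WT 1 the log2 fold change was 0.18, and without WT 2 it was 0.40. In all retained cells the sign turned to -0.40 (edgeR adjusted p = 0.0944).

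Tmsb10 has a listed near-copy, Gm9844 (chr7:24862213-24862697, plus strand), which aligned to 466 bases of its transcript at 99.1% identity. Their coding sequences of 132 bases (stop codon not counted) differ at 2 positions, both in the stretch below (coding bases 25 to 84, mm10, each gene read 5′ to 3′ on its own strand; capitals mark the differing bases), so that a short 3' read may not tell them apart.
Tmsb10: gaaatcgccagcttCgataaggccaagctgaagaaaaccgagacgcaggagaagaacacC
Gm9844: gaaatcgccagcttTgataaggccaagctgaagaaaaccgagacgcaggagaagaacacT
Gm9844 had 78, 101 and 44 UMIs in microglia-like cells, against 1701, 2256 and 907 UMIs of Tmsb10. Its log2 fold change was 0.39 (edgeR adjusted p = 0.442). With the UMIs of both genes summed, the log2 fold change was 0.30 (edgeR adjusted p = 0.0356), within the standard error of the Tmsb10 value. Reads assigned to neither gene are not in this sum, and their part was not tested.

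Crybb1 (chr5:112255815-112269585, plus strand), a beta-crystallin best known as a lens protein, had 605 and 641 CPM in the WT mice and 727 CPM in the deficient mouse. The deficient value was above both WT values, and its Poisson interval of 704 to 750 CPM did not reach that of WT 2, 628 to 654 CPM. Once the spread between libraries enters, the log2 fold change was 0.21 with a standard error of 0.11, and it did not pass the test (edgeR adjusted p = 0.29). With each cell thinned to 1000 UMIs, 41.1%, 42.4% and 46.9% of microglia had a Crybb1 UMI (76.0%, 76.1% and 72.5% before thinning).

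Mif (chr10:75859353-75860240, minus strand), a secreted cytokine that binds Cd74, had 111 and 119 CPM in the WT mice and 128 CPM in the deficient mouse. These values lie close together, and the log2 fold change of 0.14 with a standard error of 0.10 did not pass the test (edgeR adjusted p = 0.432). The sequence search found 3 processed pseudogenes of Mif and 2 of Fabp5 at 95% identity or more, none of them listed in any table.

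Lyz2 encodes lysozyme, an antibacterial enzyme of phagocytes and a common marker of myeloid cells. It was the only one of the 7 with its lowest microglial level in the deficient library and more than 100 UMIs in every library: 355 and 322 CPM in the WT mice and 311 CPM in the deficient mouse. The log2 fold change was -0.13 with a standard error of 0.11 (edgeR adjusted p = 0.516). This value rested on how microglia were picked. Where cells were assigned to microglia by marker UMIs alone, with no clustering, the levels were 596, 553 and 347 CPM and the log2 fold change was -0.72 (edgeR adjusted p = 4.35e-05). In all retained cells, which include the neutrophils and monocytes, the levels were 2700, 1835 and 784 CPM (log2 fold change -1.57; edgeR adjusted p = 0.00821).

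Lyz2 has a near-copy, Lyz1, its neighbour on chromosome 10 (Lyz2 chr10:117277331-117282321, Lyz1 chr10:117287797-117292868, both on the minus strand, mm10), which aligned to 1264 bases of its transcript at 95.8% identity. Their coding sequences of 444 bases differ at 22 positions. The 60 bases shown here (coding bases 61 to 120, capitals marking the 9 positions that differ) are the stretch with the most differences. They lie towards the start of the coding sequence, so they do not show how well 3' reads separate the genes.
Lyz2: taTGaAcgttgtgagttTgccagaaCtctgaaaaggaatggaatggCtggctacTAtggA
Lyz1: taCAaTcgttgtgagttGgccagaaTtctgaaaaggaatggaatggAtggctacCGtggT
Lyz1 had 2 and 3 UMIs in the microglia-like cells of WT 1 and WT 2 and is not listed in the deficient table, so reads assigned to it are too few to move the Lyz2 values.

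Lgals1 (chr15:78926725-78930465, plus strand) encodes galectin-1, a carbohydrate-binding protein, and Fabp5 (chr3:10012548-10016607, plus strand) a carrier of fatty acids in the cytoplasm. Both were rare in microglia-like cells of every library. Lgals1 had 4.11 and 8.09 CPM in the WT mice and 6.11 CPM in the deficient mouse, from 54, 121 and 32 UMIs. The deficient value lay between the WT values, and the log2 fold change was -0.03 with a standard error of 0.31 (edgeR adjusted p = 0.974). Its sign depended on the WT library used: 0.55 without WT 2 and -0.42 without WT 1. Fabp5 had 2.97, 3.94 and 2.67 CPM, from 39, 59 and 14 UMIs, with a log2 fold change of -0.39 and a standard error of 0.43 (edgeR adjusted p = 0.67). Both standard errors are more than 2 times that of Ccr1, so a change smaller than that of Ccr1 would be hard to see in either gene at this depth.

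Seen cell by cell, few microglia carried several of these transcripts in any library. With each cell thinned to 1000 UMIs, microglia had UMIs of 0.917 of the 7 genes on average in WT 1, of 0.911 in WT 2 and of 1.02 in the deficient mouse. Cells with none of the 7 made up 33.9%, 33.4% and 29.5%, and cells with at least 1 UMI of exactly 3 of them made up 3.02%, 2.91% and 4.78%. No cell had UMIs of 6 or 7. Crybb1 and Lyz2 were the genes most often found, in 41.1% and 27.6% of the thinned WT 1 cells.

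Neutrophil RNA in the microglia differed between the libraries. S100a8 and S100a9, calgranulins that neutrophils make in bulk, summed to 895 and 461 CPM in WT microglia-like cells and to 39.7 CPM in the deficient ones, and 92.2%, 77.8% and 10.4% of those cells held at least 1 UMI of either. All 12 neutrophil markers had UMIs in WT microglia, and 11 in the deficient ones, where Ly6g was at 0. At the ratio of Lyz2 to these genes found in each library's own neutrophils, this RNA would carry 38.0 CPM of Lyz2 in WT 1 (10.7% of its level), 20.9 CPM in WT 2 (6.47%) and only 1.47 CPM in deficient cells (0.471%). For Ccr1 and Fabp5 it would carry at most 2.38% and 3.22% of the level, and less than 1% for the other 4 genes. In microglia with no S100a8 or S100a9 UMI, 288, 925 and 1652 cells, Lyz2 stood at 307, 332 and 313 CPM. In the same cells Ccr1 stood at 23.0, 24.7 and 38.3 CPM and Tmsb10 at 122, 145 and 174 CPM, so both genes kept the order they had in all microglia-like cells except that the WT values of Ccr1 came closer.

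The sub-clusters describe where in the microglia the transcripts sat; since clusters were made from these same cells, no test was run. Inside the sub-cluster led by Ccr6, a chemokine receptor, Ccr1 was at 41.8 and 41.1 CPM in the WT mice and at 43.7 CPM in the deficient mouse, from 4, 11 and 200 UMIs. Outside it, Ccr1 was at 19.998 CPM, 26.1 CPM and 7.58 CPM, the last from 5 UMIs in 201 cells. The deficient Ccr1 level thus matched the WT level within this sub-cluster as far as 4 and 11 UMIs can show, and 200 of the 205 deficient UMIs lay in it. Tmsb10 was at 83.6, 175 and 173 CPM inside and at 130, 150 and 173 CPM outside, so the deficient level was the same in both. Crybb1 was at 564, 564 and 748 CPM inside and at 605, 642 and 581 CPM outside. Inside, the deficient value was above both WT values, with an interval of 723 to 773 CPM that overlapped that of WT 1 (424 to 736 CPM). Outside, it was below both, but its interval of 524 to 642 CPM overlapped those of WT 1 (592 to 619 CPM) and WT 2 (629 to 655 CPM).

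**Figure D2:**
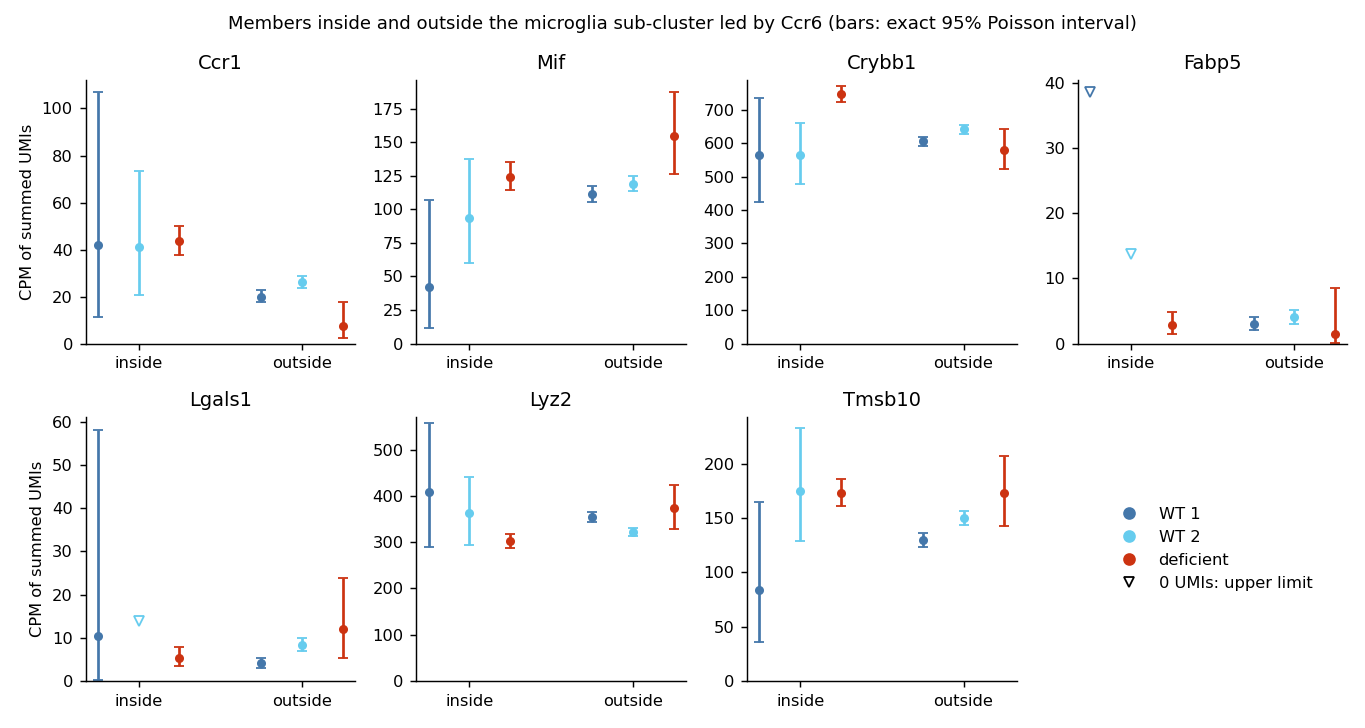
Level of each gene (vertical axes, CPM of summed UMIs, starting at 0) inside and outside the microglia sub-cluster led by Ccr6, for WT 1, WT 2 and the deficient library; bars are exact 95% Poisson intervals and open triangles the upper limit where no UMI was counted. The sub-cluster holds 53 and 112 WT cells and 1643 deficient cells, and Ccr1 lies between 41.1 and 43.7 CPM inside it in all 3 libraries.

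A small sub-cluster led by Lgals3 and Lpl, held 25, 35 and 14 cells. Itgax, Cst7 and Apoe, also among its leading genes, are known from microglia of early postnatal white matter and of disease. Its Mif level was 492 and 501 CPM in the WT mice and 474 CPM in the deficient mouse, above that of all microglia-like cells in each library. Lgals1, one of its leading genes, was at 91.0, 98.9 and 75.8 CPM there, and Lyz2 at 947, 1233 and 644 CPM. The cycling sub-cluster led by Top2a and Mki67 held 4, 16 and 2 cells, too few to compare. In the immediate early gene sub-cluster led by Atf3, Tmsb10 was at 181, 256 and 216 CPM, and without the immediate early and heat shock sub-clusters its log2 fold change was 0.44 (edgeR adjusted p = 0.000186).

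Among the cell classes of the sort, 1 of the 7 genes, Crybb1, was highest in microglia, and the other 6 had higher levels in another class in at least 1 library. Levels are compared between classes within a gene only, since UMIs are not scaled to transcript length. Crybb1 was next highest in the border-associated macrophage-like cells, with 190 and 238 CPM in the WT mice. In neutrophil-like cells it was at 79.6 and 58.1 CPM in the WT mice and had 0 UMIs in the 19 deficient cells, where the interval reaches up to 73.8 CPM. The 11 microglia markers summed to 3457, 2704 and 320 CPM in those neutrophils, against 34411, 36456 and 34321 CPM in microglia. The level of microglial RNA in the neutrophils moves with these Crybb1 values, and its part in them was not tested.

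Lyz2 was highest in classical monocyte-like cells, at 43555 and 40418 CPM in the WT mice and 36178 CPM in the deficient mouse, the last from 4 cells. Neutrophil-like cells followed at 14228, 16127 and 13820 CPM and non-classical monocyte-like cells at 12643, 17108 and 19496 CPM, and the order of these classes differed between the libraries. Border-associated macrophage-like cells had 7396, 9066 and 12053 CPM. The microglial level was the lowest of the classes in all 3 libraries.

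Tmsb10 was also highest in classical monocyte-like cells, at 6977, 6270 and 5604 CPM, followed by non-classical ones at 2208, 2669 and 3084 CPM. Lgals1 was at 950, 694 and 696 CPM in classical monocyte-like cells and at 242, 532 and 763 CPM in border-associated macrophage-like cells, and the order of these classes turned in the deficient library, where the Poisson intervals overlapped. Ccr1 was at 180, 152 and 400 CPM in neutrophil-like cells (201, 86 and 20 UMIs) and at 183, 137 and 111 CPM in border-associated macrophage-like cells, and in the WT mice these 2 classes overlapped within counting error. In the deficient mouse, with 19 neutrophils and 16 border macrophages, their intervals lay apart, at 244 to 618 and 44.8 to 229 CPM. Both statements turned when classes were assigned by marker UMIs. WT border macrophages then had 373 and 313 CPM (33 and 24 UMIs) and WT neutrophils 153 and 121 CPM, with intervals apart. In the deficient mouse the values were 209 CPM (5 UMIs in 7 cells) and 400 CPM, and the intervals overlapped. Mif was at 78.6, 178 and 143 CPM in border-associated macrophage-like cells and at 81.3, 75.8 and 77.3 CPM in classical monocyte-like cells. With classes assigned by marker UMIs, Mif in border macrophages was at 45.2, 39.1 and 251 CPM, from 4, 3 and 6 UMIs. In WT neutrophil-like cells it was at 17.0 and 21.1 CPM, below the microglial level of both libraries. In non-classical monocyte-like cells it had 6, 0 and 1 UMIs in 10, 12 and 14 cells, too few to place that class. Fabp5 reached 171 CPM in the classical monocyte-like cells of WT 1 and 47.9 CPM in those of WT 2, and it had 140 CPM in the deficient neutrophils from 7 UMIs.

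**Figure D3:**
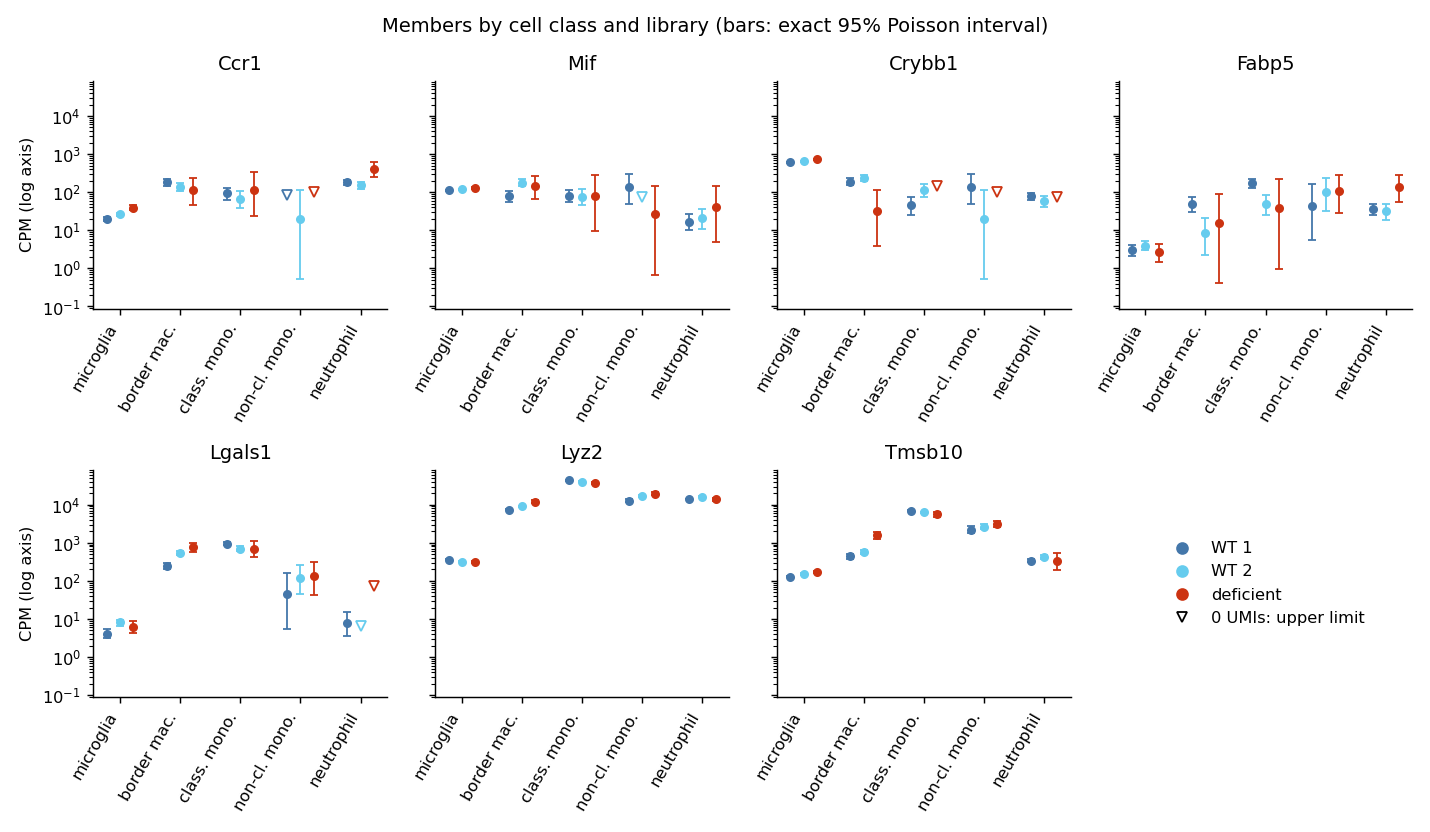
Level of each gene (vertical axis, CPM of summed UMIs, logarithmic) in 5 cell classes of WT 1, WT 2 and the deficient library; bars are exact 95% Poisson intervals and open triangles mark the upper limit where no UMI was counted. Crybb1 is highest in microglia, and Lyz2, Lgals1 and Tmsb10 are highest in the monocyte or border macrophage classes.

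The border macrophage cluster did not give the same picture when classes were assigned by marker UMIs. As clusters it held 78, 68 and 16 cells, and Tmsb10 there was at 441, 561 and 1558 CPM, the deficient value above both WT values. By marker UMIs the class held 23, 19 and 7 cells and Tmsb10 was at 56.5, 52.1 and 41.8 CPM, from 5, 4 and 1 UMIs. The class II genes H2-Eb1, H2-Aa and H2-Ab1 were among the 10 leading genes of that cluster, beside Pf4 and Mrc1. Class II genes are also known from dendritic cells, and 6 listed dendritic cell markers summed to 286, 692 and 143 CPM in the cluster, with UMIs in 17 of 78, 18 of 68 and 2 of 16 cells, against 18.9, 16.8 and 15.7 CPM in microglia. Xcr1 was at 0 in the cluster in all 3 libraries, and Flt3, Cd209a and Ccr7 were at 0 in the deficient one. The cluster may thus hold cells other than border macrophages, and their part in its levels of the 7 genes was not tested. The summed microglia markers in the cluster were 12053, 12984 and 1908 CPM. Of 105 class levels of the 7 genes, 58 stayed within their Poisson interval when classes were assigned by marker UMIs.

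Across the 11 class-by-library sums of at least 15 cells, the genes with the profile most like each of the 7 were found by Pearson's correlation of log2(CPM + 1); these are descriptions, since the points share libraries. Crybb1 ran with Frmd4a (r = 0.992) and the adult microglia marker Tmem119 (r = 0.99). Lyz2 ran with Ifitm3 (r = 0.996) and Emb (r = 0.994), and Lgals1 with Clec4a1 (r = 0.989) and Mcub (r = 0.983). The 2 genes most like Tmsb10 were Rps27a and Smc4 (r = 0.972 and 0.966), those most like Mif were Acsl5 and Ahsa2 (r = 0.968 and 0.965), those most like Fabp5 were Uhrf1bp1l and Pqlc1 (r = 0.942 and 0.938), and those most like Ccr1 were Cpne2 and F630028O10Rik (r = 0.925 and 0.921).

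Beside the 7 genes, 25 other genes known from fetal microglia were read from the same fit in microglia-like cells, 22 of which could be tested. Of these, 1 was higher in the deficient library and 8 were lower, against 3.3% and 8.38% of all genes tested. Their median log2 fold change was -0.34, against 0.0021 for all genes tested and 0.14 for the 7 members. Hmox1, which breaks down heme, was the higher one (108, 99.5 and 141 CPM after edgeR's TMM scaling; log2 fold change 0.44, edgeR adjusted p = 0.00023). The lower ones included Pf4, a chemokine of border macrophages and platelets (log2 fold change -2.75), the intermediate filament gene Vim (-1.21), the secreted phosphoprotein Spp1 (-1.17) and galectin-3, Lgals3 (-0.99), whose TMM-scaled levels in the deficient library were 0.57, 2.85, 3.99 and 4.18 CPM. The remaining 4, named after their values were seen, were the tubulin genes Tuba1a (-0.55), Tuba1b (-0.36) and Tubb5 (-0.56) and the chromatin-associated Ptma (-0.48). The 3 most abundant genes of this list did not pass: Tmsb4x, the actin-binding relative of Tmsb10, had 10880, 11770 and 13010 CPM, Ftl1 had 3408, 3132 and 2615 CPM, and Ctsl had 1114, 1135 and 1139 CPM. With the Slc1a3 clusters added, 1 was higher and 4 were lower, against 1.57% and 6.37% of all genes. Vim, Lgals3, Tuba1b and Ptma no longer passed (edgeR adjusted p = 0.175, 0.158, 0.0803 and 0.0894). DESeq2 called 0 higher (1 at an unadjusted p under 0.05) and 3 lower, against 0.422% and 3.67% of all genes. Without the sub-clusters led by immediate early and heat shock genes, 1 was higher and 5 were lower, against 269 and 747 of 11257 genes. The higher one was Spp1, whose sign turned. Spp1 had 93, 160 and 21 UMIs in all microglia-like cells and 9, 13 and 21 UMIs without those sub-clusters, with a log2 fold change of 1.74 (edgeR adjusted p = 0.0184). In the same setting Hmox1 had a log2 fold change of 0.17 (edgeR adjusted p = 0.546), and Ptma (-0.08; edgeR adjusted p = 0.76) and Vim (-1.13; edgeR adjusted p = 0.118) did not pass either. Pf4, Ms4a7 and F13a1 on this list are also border macrophage markers; that marker list summed to 185, 195 and 226 CPM in microglia, with Cbr2, Cd163, Lyve1, F13a1 and Clec10a at 0 in the deficient library.

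Of 12 early postnatal genes 10 were tested, and 0 were higher by edgeR or at an unadjusted p under 0.05. Lower were 3, against 8.38% of all genes tested (3.3% were higher). These were Csf1, a growth factor for macrophages (log2 fold change -1.14), and the chemokines Ccl3 (-1.60) and Ccl4 (-1.45). Ccl3 stood at 1577, 643.6 and 365.7 TMM-scaled CPM and Ccl4 at 2325, 1046 and 615.5. The gap between the WT libraries was thus larger than that between WT 2 and the deficient one, and DESeq2 called neither (adjusted p = 0.918 and 0.916); it called 0 of the 10, with 1 at an unadjusted p under 0.05. All 3 calls were lost when the Slc1a3 clusters were added, with log2 fold changes of -0.51, -0.54 and -0.24. Without the immediate early and heat shock sub-clusters Ccl3 (-0.87) and Ccl4 (-0.60) were still lower, while Csf1 had a log2 fold change of -0.03 and did not pass. The tetraspanin Cd9, the most abundant gene of the list, had 1725, 1927 and 1580 CPM and did not pass.

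Of 26 genes of adult microglia, all tested, 0 were higher and 1 was lower, against 3.3% and 8.38% of all genes. At an unadjusted edgeR p under 0.05, 1 was higher and 3 were lower, against 994 and 1556 of 11836 genes. With the Slc1a3 clusters added, 0 were higher and 1 was lower, against 1.57% and 6.37% of all genes. Without those clusters, the median log2 fold change of the 26 was 0.0048. The abundant Cst3, a secreted protease inhibitor, and Selplg, a selectin ligand, had log2 fold changes of 0.16 and 0.04 and did not pass. Several of these genes, such as Tmem119 and P2ry12, also served to name the cells as microglia.

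**Figure D4:**
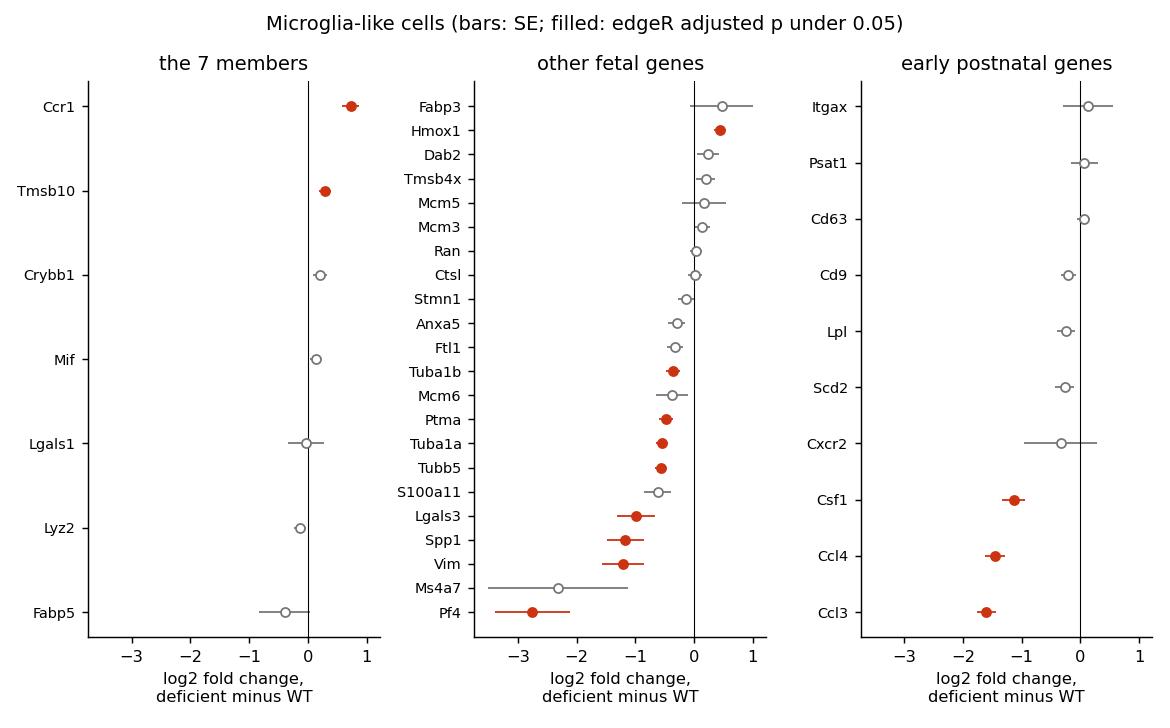
Log2 fold change, deficient minus WT, in microglia-like cells (horizontal axes) for the 7 genes, 22 other fetal genes and 10 early postnatal genes; bars are standard errors and filled points passed the edgeR test. Ccr1 and Tmsb10 are the filled points among the 7, 8 of the 9 filled fetal genes lie below 0, and all 3 filled early postnatal genes do.

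Genes of glycolysis, the cell cycle, tissue handling and interferon were read beside these. Of all genes tested, 3.3% were called higher and 8.38% lower, and 1.57% and 6.37% with the Slc1a3 clusters added. Without the immediate early and heat shock sub-clusters, 269 of 11257 genes were higher and 747 lower. Of 12 glycolysis genes 1, Gapdh, was lower (log2 fold change -0.39) and 0 were higher by edgeR or at an unadjusted p under 0.05, while Aldoa had 0.03. With the Slc1a3 clusters added Gapdh did not pass (-0.33; edgeR adjusted p = 0.0695), which left 0 lower by edgeR (1 at an unadjusted p under 0.05). Of 9 tested cell cycle genes 0 were higher by edgeR or at an unadjusted p under 0.05 and 4 were lower, Hmgb2 (-0.52) and Pcna (-0.98) being the most abundant. Cenpa was among these and did not pass with the Slc1a3 clusters added (edgeR adjusted p = 0.0555), where 0 were higher and 3 were lower. Hmgb2 did not pass without the immediate early and heat shock sub-clusters (-0.29, edgeR adjusted p = 0.103). All 27 immediate early and heat shock genes known to respond to tissue dissociation were lower in the deficient library, with a median log2 fold change of -1.89; Jun was at 4509, 3278 and 1263 TMM-scaled CPM and Junb at 3257, 2147 and 903. With the Slc1a3 clusters added, 20 of the 27 were lower, and the median was -1.16. This difference in handling-responsive genes moves with the library, and its part in the other values was not tested, beyond the removal of the immediate early and heat shock sub-clusters, after which 23 of the 27 were still lower and Ccr1 had a log2 fold change of 0.72 (edgeR adjusted p = 4.28e-05). Of 15 tested interferon genes 4 were higher and 0 were lower by edgeR or at an unadjusted p under 0.05; Bst2, which tethers virus particles to the cell surface, had a log2 fold change of 0.35. With the Slc1a3 clusters added 5 were higher: Ifitm3 (0.76) and Rtp4 (0.57) passed, and Xaf1 (0.32, edgeR adjusted p = 0.122) no longer did. In microglia-like cells without those clusters, DESeq2 called 1 interferon gene higher and 0 lower. It called 1 glycolysis gene, 1 cell cycle gene and 20 of the 27 dissociation genes lower, and 0 of these lists higher. Of all genes it called 0.422% higher and 3.67% lower.

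**Figure D5:**
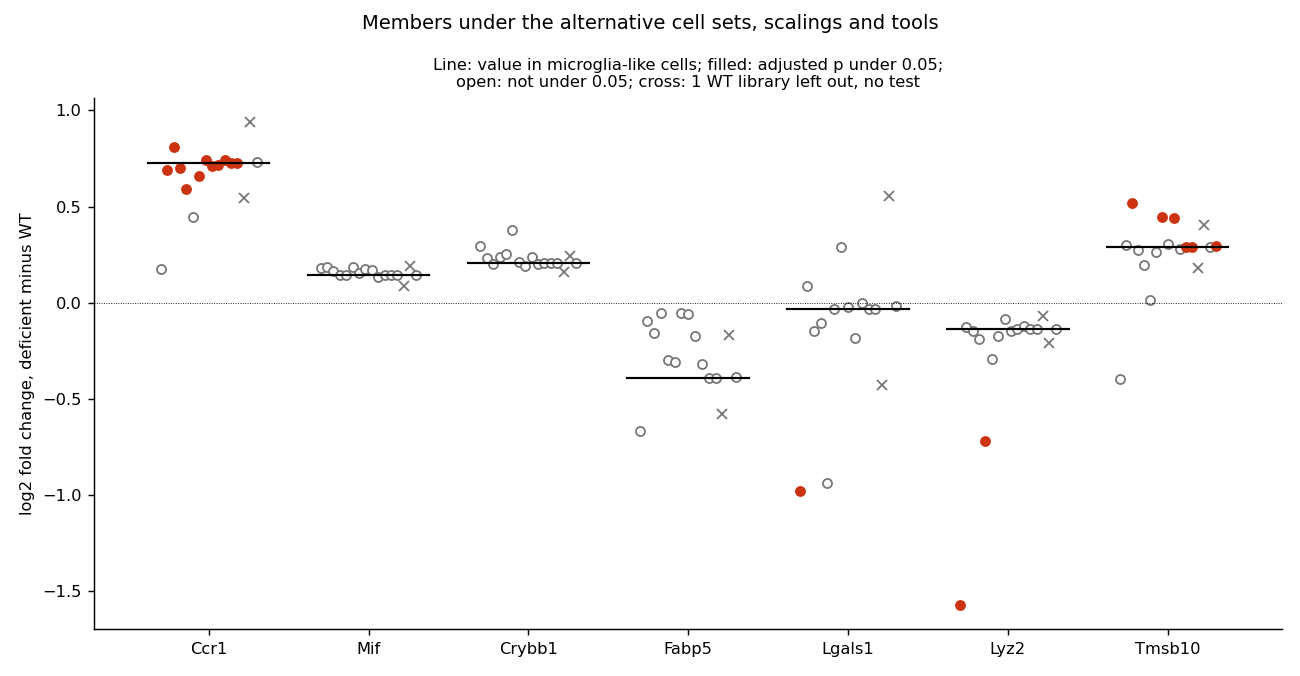
Log2 fold change, deficient minus WT, of each of the 7 genes (vertical axis) as reported for microglia-like cells (line) and under each alternative (points); filled points had an adjusted p under 0.05, open points did not, and crosses leave out 1 WT library and have no test. Ccr1 is above 0 under all 16 alternatives and past the threshold in 11 of 14 with a test, Mif and Crybb1 are above 0 and never past it, and Lyz2 is below 0 and past it in 2.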

How the data were processed

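Each deposited table gives, for 1 library, the unnormalized UMI count of every listed gene in every barcode. Cells were digested from brain, sorted for CD11b and CD45 and made into 10x 3' libraries, per the labels' protocols. The tools Cell Ranger 3.0 and Seurat 2.2, with build mm10, come per the submitters' processing notes, which name no filter. Genes with UMIs in under 5 cells are nearly absent from the tables, so an unlisted gene is below a limit, not at 0.

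Barcodes with under 500 UMIs, under 200 genes or over 10% mitochondrial UMIs were dropped. Scrublet called 0, 1 and 28 doublets, which were removed; with so few calls it cannot be relied on, and doublets may be left. Cells were clustered (scanpy 1.11.5, leidenalg 0.10.2; 2000 genes, 30 components, resolution 1) and named from marker lists. Sums of UMIs over the microglia-like cells of each library were tested with edgeR 4.0.16 (TMM, filterByExpr), with DESeq2 1.42.0 as an alternative; classes were also assigned, as an alternative, by the marker list with the most UMIs in a cell (at least 5). Other classes are described with exact Poisson and binomial intervals, which cover counting error only. The edgeR script was tested on simulated data. Copies of the genes were searched with BLAST in GENCODE transcripts of mm10.

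The 7 genes and the companion lists were chosen with earlier results of these data known. Besides the 7, the text names list genes past the threshold (at most the 4 largest in each direction in lists with more than 8), the 3 most abundant of the fetal, postnatal and adult lists, the 2 most abundant of the others, listed copies, and the 2 most similar profiles; some genes that this rule would name are not reported here. Alternatives changed the scaling, low-count filter, tool, cell filter, doublet removal, clustering, cell set, depth and WT library.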

Additional observations from a re-analysis of the deposited data

Results flagged for a closer look

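Crybb1 differed in direction between cell classes: the deficient library was above both WT libraries in microglia-like cells (727 CPM) and below both in border-associated macrophage-like cells (31.8 CPM, from 2 UMIs in 16 cells), with counting intervals that did not overlap. WT border-associated macrophage-like cells had 190 and 238 CPM. The summed microglia markers moved the same way in this cluster: WT 1 had 12053, WT 2 had 12984 and the deficient library had 1908 CPM, and their part in the Crybb1 values was not tested. The difference between the classes was not tested. With classes assigned by marker UMIs, the border macrophage values were 33.9, 65.1 and 83.6 CPM in WT 1, WT 2 and the deficient library, from 3, 5 and 2 UMIs, and the direction was no longer opposite.

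Lyz2 was above both WT libraries in the deficient border-associated macrophage-like cells (12053 CPM) and below both in the classical monocyte-like cells (36178 CPM, from 4 cells). This difference was not tested either. By marker UMIs the deficient values were 17345 and 25233 CPM, beside 10369 and 16304 CPM in WT border macrophages and 40865 and 43658 CPM in WT classical monocytes.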

How the results depend on the processing

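The comparison rests on 1 deficient animal, so its own spread is unknown, and genotype, library and depth cannot be told apart. Nor can any difference in age or sex, since the age of the deficient mouse and the sex of all animals are not given. No paired analysis was possible because the deficient group is 1 library, whose label gives no replicate number, so the groups share fewer than 2 numbers. Ccr1 stayed above 0 under all 16 alternatives (0.18 to 0.94 on the log2 scale). Of the 7 members, 1 (Ccr1) passed the threshold with called doublets kept, where 325 of 11793 genes were higher and 915 lower. Only Ccr1 passed at clustering resolution 0.5 (198 and 767 of 11851) and with the strict cell filter (249 and 862 of 11843). The same held with the Slc1a3 clusters added (186 and 755 of 11858) and without the Lpl and Cst7-led sub-cluster (337 and 939 of 11823). No sub-cluster was led by interferon genes, so none was removed for them. With DESeq2 0 passed, against 50 and 434 of 11836 genes. In the 43, 164 and 456 cells with no UMI of neutrophil, border macrophage or monocyte markers 0 passed. Fabp5 and Lgals1 could not be tested there, and 18 and 166 of 7202 genes were called higher and lower. In all retained cells the 2 members called, Lgals1 and Lyz2, were both lower, Tmsb10 turned to -0.40 and so did the median of the 7. Microglia by marker UMIs gave Ccr1 higher and Lyz2 lower, against 252 and 888 of 11912 genes. Lgals1 turned to 0.086 with doublets kept and to 0.29 in sub-clusters with at least 50 cells of every library, a choice made, like adding the Slc1a3 clusters and summing Tmsb10 with Gm9844, after seeing the data. Leaving out 1 WT library gave 0.55 to 0.94 for Ccr1, 0.18 to 0.40 for Tmsb10, -0.42 to 0.55 for Lgals1 and 0.09 to 0.25 for the median of the 7.

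Genes called numbered 1382 (390 higher and 992 lower), 852 (122 and 730) in all retained cells, 941 (186 and 755) with the Slc1a3 clusters, 705 (136 and 569) after thinning, 484 (50 and 434) with DESeq2 and 184 (18 and 166) in cells without foreign marker UMIs. Other fetal genes called numbered 9, and 3 after thinning and with DESeq2. They numbered 4 in sub-clusters with at least 50 cells of every library, where 275 of all genes were higher and 747 lower. With the Slc1a3 clusters they numbered 5, and in cells without foreign marker UMIs 0. The 3 early postnatal calls became 0 in all retained cells, at resolution 0.5, for microglia by marker UMIs, in cells without foreign marker UMIs, with the Slc1a3 clusters and with DESeq2. The causes were not tested. All 21 shares of microglia with a UMI of a member fell outside their binomial interval after thinning, as thinning removes UMIs.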
